A study of Mus musculus with 6 samples.

Results

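Immediate early genes are switched on within minutes of a signal, from transcription factors that already sit in the cell and without new protein synthesis, and their short-lived transcripts disappear again soon after. Their best known products are the FOS and JUN proteins, which pair through leucine zippers to form the transcription factor AP-1, and the zinc finger factor EGR1. In endothelial cells (EC), the cells that line blood vessels, this response follows growth factors, thrombin, changes of flow and wounding, and AP-1 and EGR1 take part in the growth of vessels. A set of 10 such genes was followed here in lung EC of infant and young adult mice: the FOS family genes Fos and Fosb, the JUN family genes Jun, Junb and Jund, the AP-1 partner gene Atf3, Egr1, the orphan nuclear receptor gene Nr4a1, Ier2, and Zfp36, whose product degrades short-lived mRNAs. The genes were chosen by symbol, with earlier results of these data known. Each of the 10 had 1 row among the 12623 genes of the deposited expression table.

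The table holds 6 RNA-seq libraries, 3 from infant and 3 from young adult C57BL/6N mice, each an independent biological replicate per the labels. According to the study's methods the infant mice were in the second postnatal week and the young adult mice in about the third month of life, and the labels name no treatment or genetic change in either group. Lungs were digested with collagenase at body temperature, and living cells with CD31 and CD34 on their surface and without PTPRC, LYVE1, PDPN and LY76 were sorted by flow cytometry. Every library thus came from digested and sorted cells and no undigested lung was analysed here, so the levels in the intact vessel and those reached during the isolation cannot be told apart. Values are in RPKM, reads per kilobase of transcript scaled to the mapped reads of the library, and the number of reads behind a library is unknown.

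The libraries held transcripts of the label's cell type. Cdh5, which encodes the junction protein VE-cadherin, measured 252.1 ± 51.1 RPKM in infant and 302.6 ± 22.7 RPKM in young adult EC (mean ± SD, n = 3 each, as throughout). Pecam1, which encodes the sorting antigen CD31, measured 384.3 ± 111.6 and 604.2 ± 46.5 RPKM. Infant libraries held more transcripts of other cells. The 10 fibroblast markers summed to between 337.1 and 1295 RPKM in infant and between 11.7 and 24.6 RPKM in young adult libraries, with 9 of 10 called lower, and the 10 mural cell markers to 70.1 to 238.1 and 12.1 to 16.5 RPKM, with 9 of 10 called lower. The 7 erythroid markers in the table summed to 9656 to 79860 and 822.2 to 1351 RPKM, and all 7 were called lower. The sums of the 13 leukocyte markers, at 320.9 to 516.9 and 139.8 to 552.5 RPKM, and of the 10 epithelial markers, at 6513 to 11380 and 1818 to 8384 RPKM, overlapped between the ages, with 4 genes of each list called lower. No listed marker that was tested was at 0 in all 3 young adult libraries. Of the 16 endothelial markers 2 were called higher and none lower. Over all tested genes, 8.1% were called lower and 3.33% higher. By limma adjusted p under 0.05 alone, 3 of the 16 were higher and 1 lower. The same counts over all 12458 tested genes were 1154 higher and 2022 lower. The 16 endothelial markers summed to 3804 to 5544 RPKM in infant and 5886 to 6438 RPKM in young adult libraries. This sum was below the epithelial and erythroid sums in every infant library, and below the epithelial sum in young adult replicate 3. Transcripts of 4 Y-linked genes summed to 42.2 to 47.0 RPKM in infant libraries and to 0 in young adult libraries, whereas the methods name female mice, and sex and age cannot be told apart here.

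To ask how the immediate early genes change as the lung endothelium comes to rest, the age groups were compared with limma on log2(RPKM + 1) over 12458 genes. Calls required a Benjamini-Hochberg adjusted p below 0.05 together with a log2 fold change beyond 0.81 in either direction, the fold threshold of the study. Of the 10 genes, 7 were called lower in young adult EC (Fos, Fosb, Junb, Egr1, Nr4a1, Ier2 and Zfp36) and 0 higher, against 8.1% of all tested genes called lower and 11.4% called in either direction. Under quantile normalization 532 of all tested genes were called higher and 611 lower, in place of 415 and 1009, with 7 of the 10 genes still called lower. The other three, Jun, Jund and Atf3, were not called. The median log2 fold change was -1.28 over the 10 genes and -0.07 over all tested genes. Summed over the 10 genes, RPKM amounted to 1086 ± 245.0 in infant and 418.8 ± 60.7 in young adult EC, a 2.59-fold difference. Since these are bulk libraries, fewer cells that express a gene and less RNA per cell cannot be told apart.

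**Figure D1:**
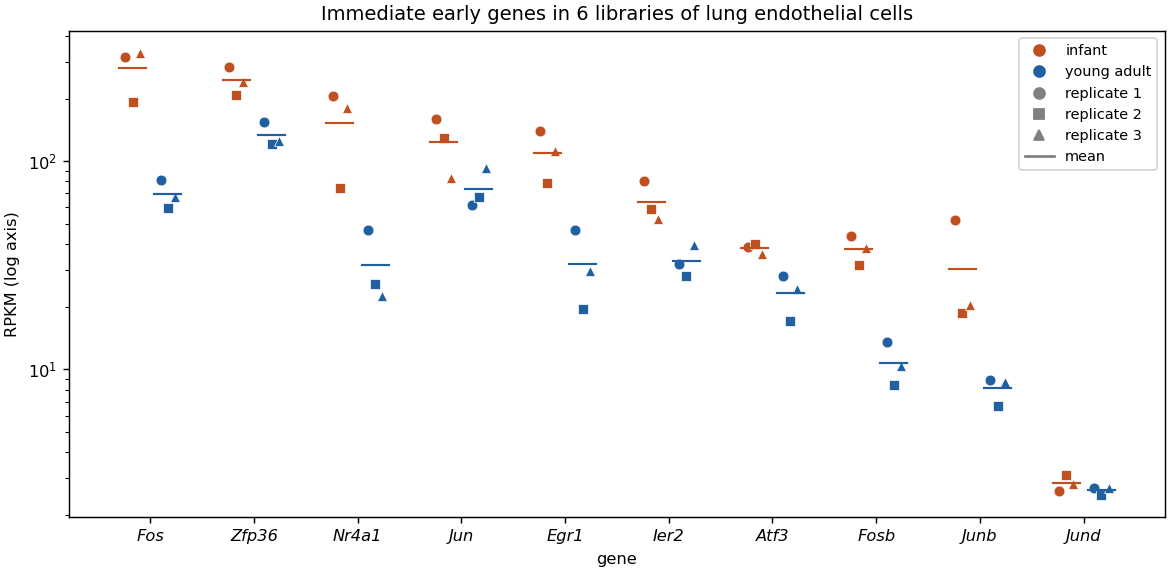
RPKM on a log axis of the 10 immediate early genes in each of the 3 infant (orange) and 3 young adult (blue) libraries, with symbols for replicates and a line for the mean of each group. All young adult values lay under all infant values for 8 of the 10 genes and for 27.1% of all tested genes, while the groups of Jun and Jund overlapped.

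Immediate early genes are known to be short and to have few introns. The median transcript length was 2292.5 bases in the set and 2807.5 over the tested genes with a matched model. Transcripts of Fosb (3782 bases), Jun (3189) and Egr1 (3036) were longer than the latter. Jun, Junb, Jund and Ier2 consist of a single exon, as do 2.49% of the tested genes with a matched model, and the median was 2.5 exons in the set against 9 in all. Their transcripts were also rich in G and C, from 51.9% in Fos to 67.1% in Jund, against a median of 50.2% over all tested genes.

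Many of these promoters are known to be driven by CREB, which binds the cyclic AMP response element, and by serum response factor, which binds the CArG box. RefSeq start sites (GRCm38.p6) were given for 8 of the 10 genes. In 6 of these (Fos, Fosb, Jun, Junb, Atf3 and Nr4a1) the site lay within 50 bases of the start of the GENCODE transcript matched to the row measured here, while those of Zfp36 and Jund lay 1025 and 1210 bases from it and are left aside. The core TGACG of the cyclic AMP response element was sought on either strand within 250 bases upstream of the start. It lay in 5 of the 6 genes (not in Jun) and in 26.3% of 11523 windows of tested genes. The condition of 50 bases was not applied to the 11523 windows. The motif and the distance of 50 bases were chosen after the sequences had been seen. The windows left aside by that distance, those of Zfp36 and Jund, held 0 matches to the core. For Fos, Junb and Nr4a1, all called lower, the 120 bases up to the start are shown, each 5′ to 3′ on the strand of the gene, with the core in capitals (CGTCA is the core on the other strand). They come from chr12:85473770-85473889 (plus strand), chr8:84978749-84978868 (minus strand) and chr15:101266726-101266845 (plus strand), and hold no annotated exon.
Fos: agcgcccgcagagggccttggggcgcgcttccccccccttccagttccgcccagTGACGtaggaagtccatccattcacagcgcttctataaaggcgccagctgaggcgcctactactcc
Junb: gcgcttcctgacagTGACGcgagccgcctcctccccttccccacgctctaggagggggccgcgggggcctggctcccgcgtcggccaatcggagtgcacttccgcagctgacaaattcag
Nr4a1: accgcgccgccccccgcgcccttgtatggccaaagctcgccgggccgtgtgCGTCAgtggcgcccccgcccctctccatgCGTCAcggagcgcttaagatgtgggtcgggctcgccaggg

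Within the stretch shown, the core appears once in Fos, once in Junb and at 2 places in Nr4a1. The CArG box lay in 0 of the 6 windows and in 1.3% of all windows. The EGR site GCGNGGGCG lay in 2 of the 6 (Fosb and Nr4a1) and in 8.5% of all windows, and the AP-1 site TGANTCA in 0 of 6 and in 4.6%. Of the windows left aside, that of Zfp36 held 1 CArG box and 1 EGR site, and that of Jund held neither. Sites further upstream were not searched, and a match is not evidence of binding.

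Among the FOS family genes, whose products bind DNA only as partners of a JUN protein, Fos was the most abundant of the 10 genes in infant EC. Fos (chromosome 12, 85473890 to 85477274, plus strand) stood at 318.4, 193.0 and 330.0 RPKM in the infant libraries, in replicate order, and at 81.6, 59.3 and 67.6 RPKM in those of young adult mice. The lowest infant library was 2.37 times the highest young adult library. Mean Fos thus went down from 280.5 ± 76.0 to 69.5 ± 11.3 RPKM (log2 fold change -1.97, SE 0.23, limma adjusted p 0.002). Fosb (chromosome 7, 19302696 to 19310118, minus strand), a close relative, had 43.9, 31.7 and 38.3 RPKM in the infant and 13.5, 8.4 and 10.4 RPKM in the young adult libraries. Its groups lay as far apart as those of Fos, with the lowest infant library 2.35 times the highest young adult one. The log2 fold change of Fosb was -1.74 ± 0.18 (SE), at a limma adjusted p of 0.00146. These were the only genes of the set that were called under each of the 21 alternative settings.

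The JUN family genes, whose products form AP-1 with FOS proteins or with each other, differed in their values. Junb (chromosome 8, 84976909 to 84978748, minus strand) had 52.3, 18.6 and 20.3 RPKM in the infant and 8.9, 6.7 and 8.7 RPKM in the young adult libraries. Infant replicate 1 stood well above the other two, which still exceeded each young adult library. Junb had a log2 fold change of -1.64 ± 0.35 (SE; limma adjusted p 0.0162), and was not called without young adult replicate 1 (adjusted p 0.0557) or young adult replicate 2 (adjusted p 0.0731). Jun (chromosome 4, 95049036 to 95052222, minus strand) had 159.1, 129.5 and 83.0 RPKM in the infant and 61.5, 67.4 and 92.8 RPKM in the young adult libraries. Infant replicate 3 lay below young adult replicate 3, so the groups overlapped. Jun had a log2 fold change of -0.71 ± 0.25 (SE) and did not pass the test (limma adjusted p 0.0759). It was called without infant replicate 3 (-0.97, adjusted p 0.0294) and when libraries were rescaled without the globin genes (-0.82, adjusted p 0.0421). The antisense gene Junos overlaps the exon of Jun on the opposite strand, and without strand information in the counting the reads of both cannot be separated.

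Jund (chromosome 8, 70697739 to 70700616, plus strand), known as the JUN gene that resting cells keep expressing, was low and level. It had 2.6, 3.1 and 2.8 RPKM in the infant and 2.7, 2.5 and 2.7 RPKM in the young adult libraries. The values of both groups lay within 1 narrow range and overlapped. Its log2 fold change was -0.08 with a 95% interval from -0.32 to 0.17 (limma adjusted p 0.626), which leaves out the fold threshold in either direction, although the pseudocount understates changes at such low RPKM. Under quantile normalization the sign of this value turned (0.16). The antisense gene Gm11175 overlaps Jund as well.

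Within a library the ratio of a pair of genes does not depend on how the library was scaled, and 3 such ratios were compared after the values had been seen. The log2 ratio of Fos to Jun was 1.0, 0.58 and 1.99 in infant and 0.41, -0.18 and -0.46 in young adult replicates 1 to 3. All infant values were higher, by a mean of 1.27, and the exact two-sided permutation p was 0.1, the smallest that 3 against 3 libraries allow. With Benjamini-Hochberg adjustment over the 3 ratios it was 0.2, as for Junb to Jun (a young adult minus infant difference of -1.03, raw p 0.2) and Jun to Jund (-0.61, raw p 0.2). None of the 3 could pass 0.05 in this design.

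The FOS and JUN family genes in the table (the 5 above and Fosl2) together had 581.1, 380.1 and 480.0 RPKM in the infant and 172.1, 146.4 and 185.1 RPKM in the young adult libraries. Fos made up 58.1 ± 9.4% of this sum in infant and 41.5 ± 5.5% in young adult EC, whereas Jun made up 26.2 ± 8.4% and 44.0 ± 7.4%. Jun had a higher RPKM than Fos in young adult replicates 2 and 3 only. The summed RPKM of the FOS family was 1.71, 1.51 and 3.52 times that of the JUN family in infant replicates 1 to 3. In young adult replicates 1 to 3 it was 1.35, 0.911 and 0.776 times that of the JUN family. Fosl2, which encodes a later and more stable FOS family protein, fell from 4.87 ± 0.70 to 2.97 ± 0.90 RPKM. It stayed under the fold threshold (log2 fold change -0.58, limma adjusted p 0.0487) and was not called. Of the smaller sum in young adult EC it made up 1.76 ± 0.45%, against 1.03 ± 0.18% in infant EC. These shares are per transcript length and are given without a test. No correction for the G and C content of the transcripts was made here, so levels of different genes compare only roughly.

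**Figure D2:**
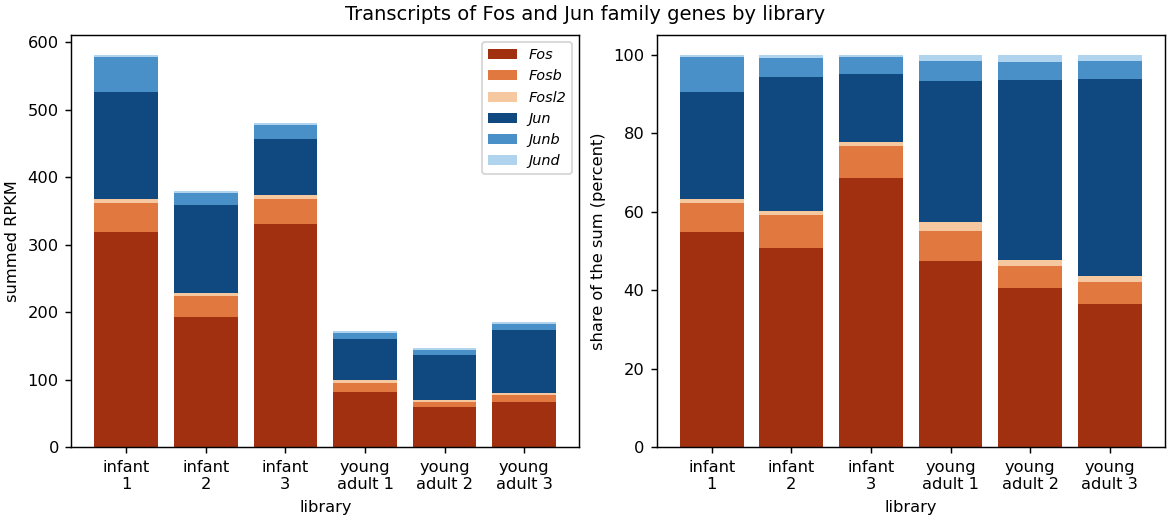
Transcripts of the FOS family (orange shades) and JUN family (blue shades) genes in each library, as summed RPKM (left) and as percent of that sum (right). The sum lay between 380.1 and 581.1 RPKM in infant and between 146.4 and 185.1 RPKM in young adult libraries, and the Fos share was 50.8% or more in infant and 47.4% or less in young adult libraries.

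Atf3 (chromosome 1, 191170296 to 191183333, minus strand) encodes a stress-induced factor that pairs with JUN proteins and often represses its targets. It had 38.8, 39.9 and 35.9 RPKM in the infant and 28.1, 17.1 and 24.3 RPKM in the young adult libraries. Infant libraries were nearly level, and all lay above the young adult ones. Atf3 had an adjusted p of 0.0212 in limma but stayed under the fold threshold, with a log2 fold change of -0.72 ± 0.17 (SE). Counting genes by adjusted p alone, 8 of the 10 were lower in young adult EC, against 16.2% of all tested genes. The adjusted p of Atf3 exceeded 0.05 without infant replicate 1 (0.0688), infant replicate 3 (0.0519) or young adult replicate 3 (0.0502). Atf3 passed the fold threshold without young adult replicate 1 (-0.87) and with rescaling without the globin genes (-0.83).

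Egr1 and Nr4a1 encode inducible transcription factors outside AP-1, a zinc finger protein that binds GC-rich promoters and a nuclear receptor without a known hormone. Egr1 (chromosome 18, 34861207 to 34864956, plus strand) had 140.2, 78.6 and 111.6 RPKM in the infant and 46.8, 19.4 and 29.8 RPKM in the young adult libraries. No young adult library reached the lowest infant library, which was 1.68 times the highest young adult one. Egr1 fell by 1.80 on the log2 scale with a standard error of 0.32 (limma adjusted p 0.00886), and was called in each fit that left out 1 library. Nr4a1 (chromosome 15, 101266846 to 101274795, plus strand, for the transcript measured) had 204.8, 74.1 and 180.7 RPKM in the infant and 46.6, 25.8 and 22.5 RPKM in the young adult libraries. It showed the lowest ratio of the set, with young adult EC at 0.207 of the infant mean, and infant replicate 2 lay between the other infant libraries and the young adult ones. Its log2 fold change was -2.18 ± 0.41 (SE; limma adjusted p 0.0104), and the call was lost without young adult replicate 2 (adjusted p 0.0532).

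Ier2 and Zfp36 changed less. Ier2 (chromosome 8, 84661331 to 84662852, minus strand), which encodes a small nuclear protein, had 80.3, 58.8 and 52.5 RPKM in the infant and 32.1, 28.0 and 39.5 RPKM in the young adult libraries. Zfp36 (chromosome 7, 28376784 to 28379228, minus strand), which encodes tristetraprolin, an RNA-binding protein that shortens the life of AU-rich mRNAs, had 285.0, 208.4 and 240.3 RPKM in the infant and 154.9, 121.1 and 125.6 RPKM in the young adult libraries. For both, all infant libraries were above all young adult libraries. Ier2 had a log2 fold change of -0.91 ± 0.18 (SE; limma adjusted p 0.0132) and Zfp36 of -0.86 ± 0.16 (SE; limma adjusted p 0.0103), close to the threshold of 0.81. Ier2 was not called without infant replicate 1 (-0.74), young adult replicate 1 (adjusted p 0.0558) or young adult replicate 2 (-0.80), nor was Zfp36 without infant replicate 1 (-0.75) or young adult replicate 2 (-0.79). Zfp36 also fell short of the fold threshold when all libraries were scaled to the same total (-0.77) or by the median of ratios (-0.79).

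**Figure D3:**
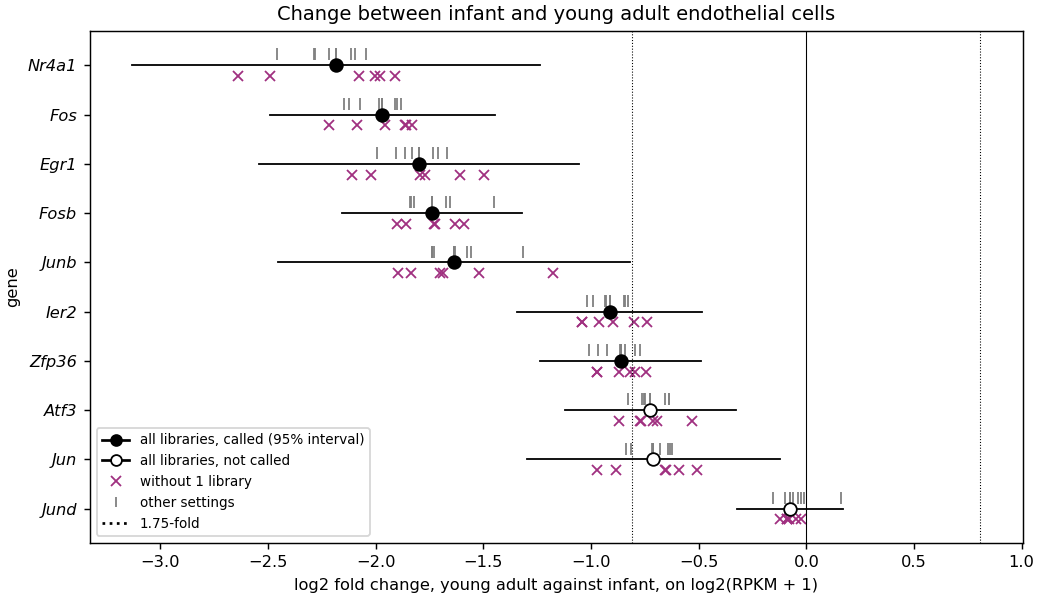
Log2 fold change on log2(RPKM + 1) of each gene, young adult against infant, with its 95% interval (black; filled where called), the values in fits without 1 library (crosses) and in other settings (grey ticks), and dotted lines at the fold threshold. The values of 9 genes stayed below 0 in every setting, and those of Jund lay around 0.

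In infant EC the order of levels ran from Fos (280.5 RPKM) over Zfp36, Nr4a1, Jun, Egr1, Ier2, Atf3 and Fosb to Junb and Jund. Libraries of neighbours in this order overlapped, except between Zfp36 and Nr4a1, Ier2 and Atf3, and Junb and Jund. In young adult EC Zfp36 led at 133.9 ± 18.4 RPKM, followed by Jun, Fos, Ier2, Egr1, Nr4a1, Atf3, Fosb, Junb and Jund. Libraries did not overlap there between Zfp36 and Jun, Fos and Ier2, Atf3 and Fosb, and Junb and Jund. Fos stood at the 99.2nd percentile of all genes of the table in infant EC and still at the 94.2nd in young adult EC, and 9 of the 10 genes were above the median gene at both ages. Jund, at the 28.1st and 31.4th percentile, was the exception.

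The groups did not overlap, with all young adult values lower, for 8 of the 10 genes and for 27.1% of all tested genes. Infant replicate 1 was the highest infant library for 7 of the 10 genes and infant replicate 2 the lowest for 6, while young adult replicate 2 was the lowest young adult library for 8. Infant replicate 2 also had the fewest fibroblast, mural and erythroid transcripts of the infant libraries, with Pdgfra, a fibroblast receptor gene, at 2.6 RPKM against 87.2 and 66.8 RPKM in infant replicates 1 and 3. It had the highest infant sums of leukocyte markers (516.9 RPKM against 320.9 and 453.3) and of epithelial markers (11380 RPKM against 6513 and 8485). In that library alone the 7 called genes measured between 1.56 (Zfp36) and 2.94 times (Fosb) the young adult mean, against 1.96 to 6.09 times in the mean of infant replicates 1 and 3. Without infant replicate 2 the set still had 7 called genes. Leaving out young adult replicate 2 had the largest effect, with 3 genes called (Fos, Fosb and Egr1). Without infant replicate 1 the median log2 fold change of the 10 genes was -0.96. The part of other cell types in these values was not tested.

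Genes whose values over the 6 libraries ran closest to the mean of the set (Pearson r on log2(RPKM + 1), among 6975 genes with a mean of at least 5 RPKM) were Pbrm1 (0.995), Cnot7 (0.993), Arfip1 (0.993), Ccdc88a (0.991) and Rnf214 (0.991). None is on the lists of immediate early genes used here. Pbrm1 lay between 15.7 and 19.4 RPKM in infant and between 11.2 and 13.2 RPKM in young adult libraries, and Ccdc88a between 6.9 and 8.4 RPKM and between 3.8 and 4.6 RPKM. After the mean of each age group was taken away, the closest were Gcc1 (0.993), Pbrm1 (0.988), 4632427E13Rik (0.986), Nudt16l1 (0.984) and Cdk7 (0.984). Of the set itself, Zfp36 (0.949), Fosb (0.942) and Egr1 (0.932) followed the set's mean most closely within the age groups, whereas Jun reached 0.268 and Jund -0.43. The set's mean includes each of these genes, and with 6 libraries such values are descriptions only.

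Related genes were described from lists. Among 36 further immediate early genes tested, 9 were called lower and 3 higher, against 8.1% and 3.33% of all tested genes. Their median log2 fold change was -0.22, with negative values in 19 of 36, against 7295 of all 12458 tested genes. Cyr61, which encodes the matrix protein CCN1, fell from 92.0 ± 55.7 to 15.9 ± 4.87 RPKM (log2 fold change -2.32 ± 0.42 (SE), limma adjusted p 0.00945). Also called lower were Plk2, a polo-like kinase gene (-1.47, from 549.1 ± 67.3 to 202.6 ± 56.4 RPKM), and Ctgf, which encodes CCN2 (-1.24). Egr2 (called lower, -1.75, limma adjusted p 0.00339) and Nr4a2 (called lower, -1.64, limma adjusted p 0.0223), relatives of Egr1 and Nr4a1, were low, at 8.20 ± 3.11 and 6.83 ± 3.97 RPKM in infant EC, and are named after their values were seen. The calls of Nr4a2 and Ctgf were lost in 5 and 4 of the 6 fits without 1 library, Nr4a2 holding only without infant replicate 2 and Ctgf only without infant replicate 1 or 2. The 3 genes called higher were Edn1, which encodes the vasoconstrictor endothelin (1.52 ± 0.16 (SE), from 15.4 ± 2.82 to 46.2 ± 7.75 RPKM), Irf1, an interferon response factor gene (1.03 ± 0.18), and Cebpd (0.86 ± 0.11), whose call was lost without infant replicate 1. Klf2 and Klf4, flow-induced factor genes also counted as immediate early, had overlapping groups, Klf2 at 36.6 ± 17.4 (infant) and 53.4 ± 21.2 RPKM (young adult) and Klf4 at 65.3 ± 21.6 (infant) and 92.6 ± 23.8 RPKM (young adult), and limma adjusted p of 0.337 and 0.187. They too are named after their values were seen.

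**Figure D4:**
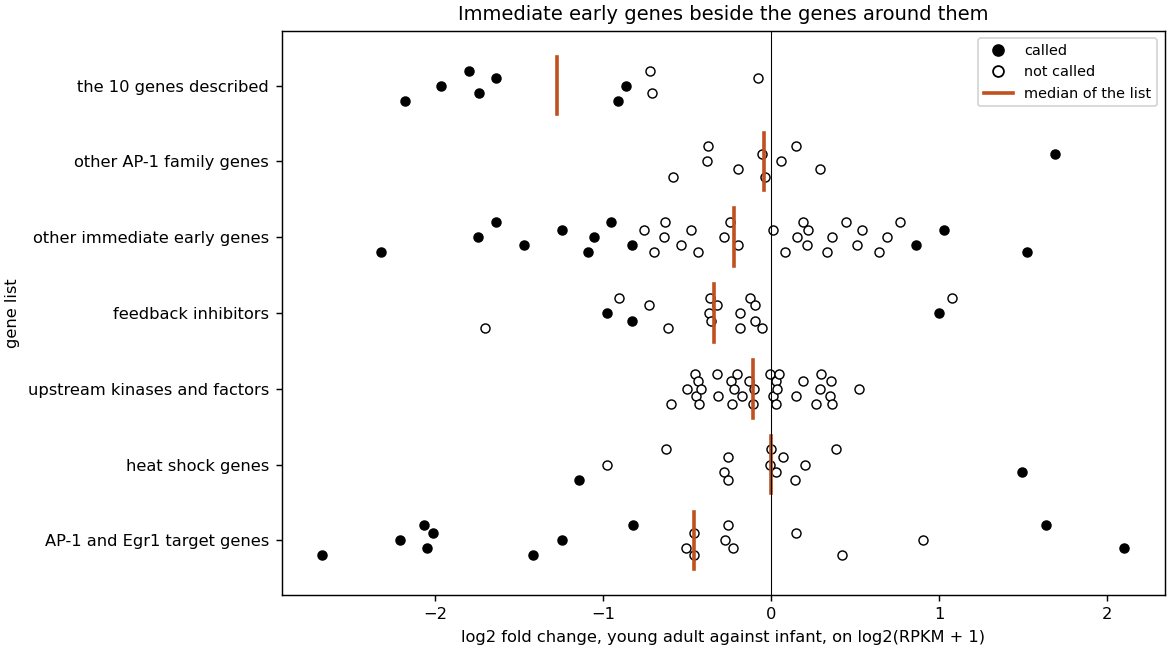
Log2 fold change on log2(RPKM + 1), young adult against infant, of the 10 genes and of 6 lists of related genes, each point a gene (filled where called) and each orange line the median of a list. The median was -1.28 in the 10 genes and between -0.46 and 0.00 in the 6 lists.

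Of 10 further AP-1 family genes tested, none was called lower, against 8.1% of all tested genes. By limma adjusted p under 0.05 alone, 1 was lower (Fosl2, above), against 16.2% of all tested genes. Batf2, which encodes an interferon-induced AP-1 partner, was called higher, from 3.60 ± 1.14 to 13.9 ± 3.47 RPKM (1.69 ± 0.22 (SE), limma adjusted p 0.00307). It was the 1 gene of this list called higher, against 3.33% of all tested genes. Among 32 upstream kinases and factors, such as the MAP kinases, serum response factor and CREB, 0 were called, against 11.4% of all tested genes. At an adjusted p under 0.05 alone, 4 were lower, against 16.2% of all tested genes. The most abundant of the 32 were Mapk3, the gene of the kinase ERK1, at 102.3 ± 9.21 and 131.7 ± 12.3 RPKM, and Elk3, a partner gene of serum response factor, at 45.9 ± 2.61 and 59.0 ± 7.05 RPKM in infant and young adult EC, with limma adjusted p of 0.0669 and 0.0624.

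Among 18 feedback inhibitors, whose products end the response, Zfp36l1, a relative of Zfp36 (-0.98), and Spred1 (-0.83), an inhibitor of RAS signalling that is named after its value was seen, were called lower. Dusp8, which encodes a MAP kinase phosphatase, was called higher (1.0). Zfp36l1 lost its call without infant replicate 1 or 3 or young adult replicate 2 or 3. Over all tested genes, 8.1% were called lower and 3.33% higher. Values were negative in 16 of the 18 feedback inhibitors and in 7295 of all 12458 tested genes. Dusp1, the phosphatase gene most often induced together with Fos and named after its value was seen, measured 68.7 ± 15.9 and 54.1 ± 18.4 RPKM with overlapping groups (limma adjusted p 0.353).

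Of 14 heat shock genes, another group of stress-induced genes, 1 was called lower and 1 higher, with a median of 0.00. The shares over all tested genes were 8.1% and 3.33%. Hspa1a fell from 29.4 ± 11.5 to 12.7 ± 5.11 RPKM (-1.15 ± 0.31 (SE), limma adjusted p 0.0328), a call lost without replicate 1 or 3 of either age, and uncertain because the near-identical Hspa1b can share its reads. Hspb1 rose from 4.73 ± 1.21 to 15.7 ± 6.15 RPKM (1.5 ± 0.28), a call lost without young adult replicate 2. Among 19 known target genes of AP-1 or EGR1 the median was -0.46, with negative values in 14 of 19, against 7295 of all 12458 tested genes. Of the 19, 8 were called lower and 2 higher. They included Thbs1, which encodes the matrix protein thrombospondin (-2.68 ± 0.33 (SE), from 68.2 ± 30.3 to 8.97 ± 0.50 RPKM), the chemokine gene Cxcl1 (-2.21 ± 0.44) and the protease gene Mmp14 (-2.05 ± 0.23) in one direction, and the adhesion molecule gene Vcam1 (2.11 ± 0.19, from 3.50 ± 0.92 to 18.3 ± 3.54 RPKM) in the other. The Cxcl1 call was lost without infant replicate 1 or young adult replicate 2. Infant replicate 2 had the lowest infant value of Thbs1 (33.8 RPKM), of Cxcl1 (5.5 RPKM) and of Mmp14 (11.7 RPKM).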

How the data were processed

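Lung EC of infant and young adult mice were profiled in 3 libraries each. RNA was amplified with the SMARTer Ultra Low kit, which does not mark strand. The authors aligned reads to mm10 with STAR (version not given in the sources used here), used the RefSeq annotation and ran DESeq2 on counts. What they deposited were RPKM values for 17241 RefSeq transcripts, to the first decimal. Counts were not used here, so depth is unknown and no counting error is given. Groups and replicate numbers came from the titles.

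Symbols turned into dates were restored from the accession (24 rows), and the row with the highest mean was kept for each gene. Genes with at least 1 RPKM in at least 1 library were tested (12458) on log2(RPKM + 1) in limma (version 3.58.1, R 4.3.3), eBayes with an intensity trend and age group as the only term. The fold threshold (0.81 on the log2 scale) was taken from the study. The pseudocount of 1 understates changes of low genes. On simulated data for this comparison, run on 12458 genes, 94% of 200 genes changed by 1.5 (log2) were recovered and 4 unchanged genes were called. The changed genes were drawn only from those above a set mean level, which left out genes as low as Jund. Noise was normal, independent between libraries and of the same spread at both ages. Recovery of low genes and of smaller changes was therefore not assessed. The 10 genes and the 12 gene lists were chosen with earlier results of these data known. Beside the 10 genes, up to 3 called genes in each direction with a mean of at least 5 RPKM were named from a list of related genes. Of uncalled lists, the 2 most abundant were named. Further genes are said to be named after their values were seen. From the marker lists only the preset markers Pecam1, Cdh5 and Pdgfra are given singly. Cd34, Ptprc, Pdgfrb, Hba-a1 and Epcam were preset as well, and their values are not given here. Positions are RefSeq gene extents (for Nr4a1, the matched GENCODE transcript) and promoters those of RefSeq, both on GRCm38.p6, whose coordinates equal those of mm10, and exons those of GENCODE on the same build. Alternatives were pseudocounts of 0.1 and 5, other filters, 4 scalings, other variance models, a replicate block, a test against the fold threshold itself, other uses of transcript rows and leaving out each library.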

Additional observations from a re-analysis of the deposited data

How the results depend on the processing

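Depth is unknown, so no value carries a counting error, and 3 libraries a group set the precision. Of the 10 genes, 2 (Fos and Fosb) were called in all 21 alternatives and 3 (with Egr1) in each of the 6 fits that left out 1 library. Those fits called between 3 (without young adult replicate 2) and 8 of the 10 genes, with a median log2 fold change from -1.415 to -0.9608 (without infant replicate 1). Other settings called 6 to 9 of the 10, except a test against the fold threshold itself, with 2. Jund turned sign under quantile normalization (0.159). The causes were not tested.

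Over all tested genes, 1424 were called, 578 with a pseudocount of 5, 176 when tested against the fold threshold itself, and 842 to 1874 without 1 library (infant replicates 1 and 3 left out gave 927 and 949, young adult replicates 1 and 2 left out gave 842 and 867). Tested against the threshold, calls went to 0 among the other AP-1 family genes, other immediate early genes, feedback inhibitors, heat shock genes, leukocyte and epithelial markers, to 4 target genes, 1 endothelial, 5 fibroblast and 3 mural markers. With a pseudocount of 5 they went to 0 feedback inhibitors, 5 mural, 1 leukocyte and 2 epithelial markers, and with array weights to 6 feedback inhibitors, 5 endothelial and 7 leukocyte markers. Robust eBayes called 1 heat shock gene. Without 1 library the calls ranged over 1 other AP-1 family genes, 9 to 15 other immediate early genes, 2 to 6 feedback inhibitors, 1 to 3 heat shock genes, 6 to 11 AP-1 and Egr1 target genes, 2 to 7 endothelial markers, 0 to 5 leukocyte markers and 0 to 4 epithelial markers.

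Replicate numbers did not pair the libraries: deviations of same-numbered libraries correlated at 0.0282, -0.1096 and -0.0208, and not every library correlated best with its own number. With the replicate block 1371 genes, 7 of the 10 genes, 5 feedback inhibitors, 1 heat shock gene and 7 leukocyte markers were called.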
